A study of Mus musculus with 12 samples.

Results

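The core microRNA processing and Argonaute machinery was followed through 10 named genes: Drosha, Dgcr8, Xpo5, Dicer1, Tarbp2, Ago1, Ago2, Ago3, Tnrc6a and Tnrc6b. Members were taken by gene name, and 8 of the 10 had a row in each of the 2 expression tables, which list 19262 and 16785 genes. Drosha and Tnrc6b were not analysed here. All 8 passed the filter on low values in both tables. The cells were primary stromal vascular cells of white adipose tissue from C57BL/6 mice aged 6 weeks, the fraction that holds adipocyte precursors, and they were studied as poly(A) RNA by stranded single-end sequencing in 4 groups of 3 libraries.

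TKO cells lacked all 3 miR-26 genes (miR-26b-/- with miR-26a-1-/- and miR-26a-2-/-) and were compared with WT cells, and both were cultured until confluent. Dox cells held the inducible transgenes M2rtTA and eGFP.miR-26a and were kept for 4 days in 1 mg/ml doxycycline. CTL cells carried the same transgenes and were left untreated. The labels limit the TKO loss to no cell type, and what drives M2rtTA in these cells was not given in the sources used here. The labels do not say whether replicates came from separate animals or cultures, so p-values measure the spread between these libraries, which may be technical. No microRNA was measured by these tables. The tables were normalized apart, so tests were made within each, and the comparisons share no libraries.

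In this pathway, Drosha with its RNA-binding partner DGCR8 cuts the primary transcript in the nucleus, and exportin-5 carries the hairpin out with Ran. Dicer, helped by TRBP (the product of Tarbp2), cuts the hairpin to a duplex. An Argonaute protein keeps 1 strand and binds target RNAs, and TNRC6 scaffolds join the Argonaute to the enzymes that shorten poly(A) tails and remove caps. In mouse, AGO2 is the Argonaute known to cleave its targets. miR-26 is abundant in many tissues and has been linked in mouse to the formation of adipocytes from their precursors.

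The sequences below are the microRNAs that were deleted or induced, and the matches to their seed in the 3′ UTRs of the machinery's own genes. The mature forms are from RefSeq (GRCm38.p6), with the seed, bases 2 to 8, in capitals. miR-26a-5p comes from chr9:119031811-119031832 and chr10:126995543-126995564, and miR-26b-5p from chr1:74394324-74394344. Both share 1 seed.
miR-26a-5p: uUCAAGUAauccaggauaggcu
miR-26b-5p: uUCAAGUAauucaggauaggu

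Seed matches of 3 forms were searched on the transcript strand of the 3′ UTR of 1 transcript per gene (GENCODE vM21): TACTTGAA, TACTTGA and ACTTGAA. The shorter forms lie inside the first and were counted only outside it. Among the members, Ago2 held 1 match, Ago3 held 2 and Tnrc6a held 1, and among the related genes that are no members Ago4 and Tnrc6c held 2 each. All lie in the last exon. Capitals mark the match, and bases beside it are in lower case.
Ago2 (minus strand, exon 19, chr15:73097889-73097895): cacgtgaaACTTGAAgacatcat
Ago3 (minus strand, exon 19, chr4:126344806-126344812): tatggttcACTTGAAggaaggtt
Ago3 (minus strand, exon 19, chr4:126342201-126342208): acagcgggTACTTGAAacagtgct
Tnrc6a (plus strand, exon 24, chr7:123193101-123193108): agtttgaaTACTTGAAtcatgcag
Ago4 (minus strand, exon 18, chr4:126492592-126492598): agttccctTACTTGActggcttt
Ago4 (minus strand, exon 18, chr4:126492074-126492080): agtactgcACTTGAAaagaaagt
Tnrc6c (plus strand, exon 22, chr11:117761195-117761201): ggggggagACTTGAAgcctattt
Tnrc6c (plus strand, exon 22, chr11:117761433-117761440): catgcaaaTACTTGAAcccagcag

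These letters were not in the 3′ UTR windows of Dgcr8, Xpo5, Dicer1, Tarbp2 or Ago1. A match of any form was found in 21.8% of the 11830 3′ UTRs of genes tested in the TKO and WT table, and in 42.8% of the 3625 that were at least 2000 bases long. The 3′ UTR was 12742 bases long for Ago3, 11064 for Ago2, 4491 for Ago1, 3851 for Dicer1, 2345 for Tnrc6a, 1574 for Dgcr8, 1327 for Xpo5 and 334 for Tarbp2, against a median of 1199.5 over tested genes. A match is a description of the letters and not a shown site of binding.

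In GRCm38 the members lie on both strands: Dgcr8 at chr16:18253948-18289246, Xpo5 at chr17:46202782-46243598, Dicer1 at chr12:104687742-104751952, Tarbp2 at chr15:102518192-102523676, Ago2 at chr15:73095844-73184935 and Tnrc6a at chr7:123123885-123195296. Ago3 (chr4:126331704-126429556), Ago1 (chr4:126435012-126468583) and Ago4 (chr4:126489541-126533472) stand side by side on the minus strand. Some exons overlap other genes, and the strand setting of the authors' counting is not given in the sources used here. Dgcr8 shares 825 of its 7696 exon bases with Trmt2a on the opposite strand, and Ago2 shares 219 of 14031 with Chrac1 on the opposite strand. On the same strand Dgcr8 shares 327 bases with Gm49776, 88 with Gm24572 and 79 with Mir1306. Tnrc6a shares 143 of 12706 with Gm45846, also on the same strand. For Tarbp2, 43% of the 75-base stretches of its transcript recur, in either orientation, in other annotated transcripts, pseudogenes among them. For Dgcr8 24.1% recur, most of all in Trmt2a on the opposite strand. The counts of both genes are therefore uncertain, to an extent that was not tested. The share was 1.62% for Ago2, 1.34% for Ago1, 0.888% for Tnrc6a and 0.619% for Ago3.

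Values are signal, the authors' read count scaled for each library. That scaling was not by library size (recovered reads) alone. With library size alone the median log2 fold change, TKO over WT, was 0.11, against -0.00085 as deposited. Recovered reads per library came to 71455171 to 83461531 in TKO, 54978109 to 61307152 in WT, 19301969 to 25785439 in Dox and 20182665 to 24122542 in CTL libraries. The summed signal of 7 progenitor and fibroblast markers was 25592 to 27193 in TKO and 19723 to 20891 in WT libraries, while with limma 1 of the 7 was higher and 2 were lower. That of 6 macrophage markers was 54.6, 247 and 47.1 in TKO replicates 1 to 3, against 34.7 to 54.4 in WT libraries. That of the 4 adipocyte markers with a row was 115, 112 and 28.9 in TKO replicates 1 to 3, against 28.1 to 30.9 in WT libraries. TKO replicate 2 thus held the most macrophage marker signal of these 6 libraries, and it was also the lowest TKO library for 7 of the 8 members, all but Tarbp2. Their part in the results below was not tested.

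The first question was whether the machinery's mRNAs differ in cells without miR-26. In TKO against WT cells, Tarbp2 was higher and Dgcr8, Xpo5, Dicer1, Ago1 and Tnrc6a were lower, while Ago2 and Ago3 did not pass. The test was limma on log2(signal + 1), with Benjamini-Hochberg adjustment over all 12649 genes tested and a threshold of 0.05. Across all genes, 45.8% passed (23.2% higher and 22.7% lower), which is the background for the 6 of 8 members. edgeR on recovered reads called 5 of 8 members (45.6% of all genes) and DESeq2 7 of 8 (50.2%). Under library-size scaling alone 3824 genes were higher and 1913 lower, against 2930 higher and 2866 lower as deposited, and of the members Dgcr8 (lower) and Tarbp2 (higher) passed. The median log2 fold change was -0.32 over the 8 members, against -0.00085 over all genes. The groups did not overlap for 1 member higher and 6 lower, where the background was 58.8% (29.4% in each direction). In these bulk libraries fewer cells of a type and less RNA per cell cannot be told apart.

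**Figure D1:**
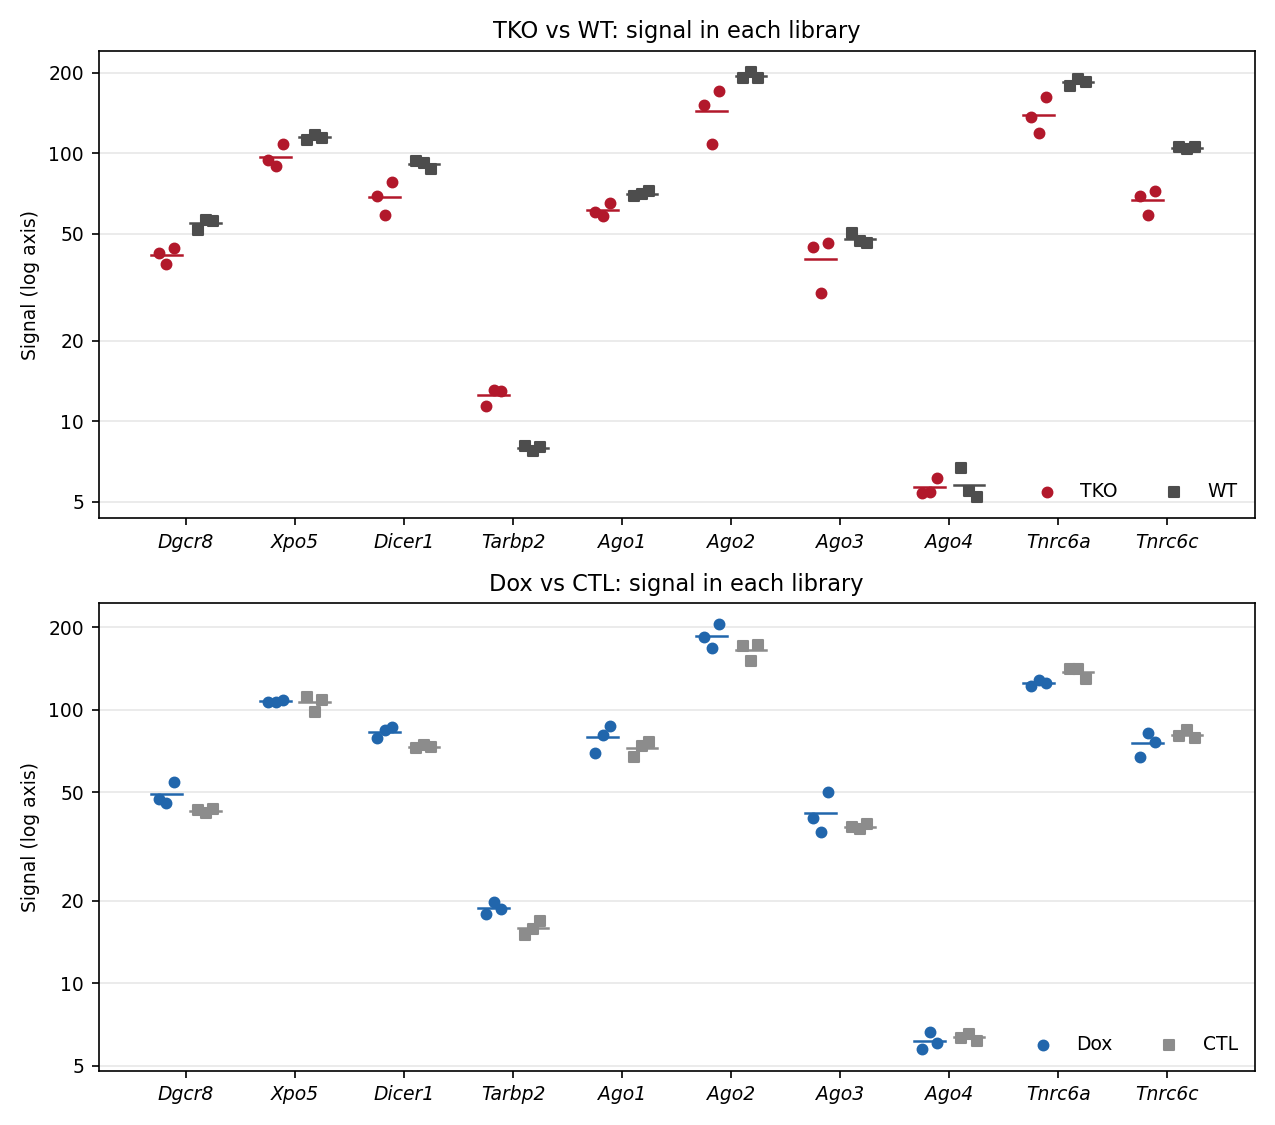
Signal (scaled reads) of each measured member and of Ago4 and Tnrc6c in each library of the 4 groups, on a log axis, with a bar at the group mean. TKO libraries sit below WT libraries for Dgcr8, Xpo5, Dicer1, Ago1, Ago2 and Tnrc6a and above them for Tarbp2, while for Ago3 TKO replicates 1 and 2 lie below the WT libraries and replicate 3 meets the lowest of them.

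Dgcr8, the RNA-binding partner of Drosha, had 42.4, 38.7 and 44.4 signal in TKO libraries, against 51.8, 56.4 and 55.8 in WT libraries. Every TKO library was below every WT library. Its mean was 41.8 ± 2.92 in TKO and 54.7 ± 2.51 in WT cells (SD, n = 3 each), a log2 fold change of -0.38 ± 0.07 (SE, limma adjusted p = 0.0069). No alternative fit or left-out library ended this call, and the authors' deposited table gives a log2 fold change of -0.39 with an FDR of 0.0163.

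Xpo5, the exporter of precursor hairpins, had 94.0, 89.6 and 108 signal in TKO libraries, against 112, 117 and 114 in WT libraries. The groups did not overlap, but TKO replicate 3 came close to WT replicate 1. The log2 fold change came to -0.24 ± 0.08 (SE, limma adjusted p = 0.0495). The call ended when TKO replicate 1 or 2 or any WT library was left out (adjusted p from 0.0983 to 0.151), and on recovered reads with edgeR (adjusted p = 0.059) or without the filter on low values (0.0577). The authors' deposited table gives -0.24 with an FDR of 0.29.

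Dicer1, which cuts the hairpin to a duplex, had 69.4, 58.7 and 78.4 signal in TKO libraries, against 93.2, 92.3 and 87.5 in WT libraries. TKO libraries were all lower and more spread, at 68.8 ± 9.85 against 91.0 ± 3.11 (SD, n = 3 each). This gave a log2 fold change of -0.41 ± 0.11 (SE, limma adjusted p = 0.0212), a call that ended without WT replicate 1 (0.0726) or 2 (0.0745).

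Tarbp2, whose product TRBP binds Dicer, moved the other way. It had 11.4, 13.1 and 12.9 signal in TKO libraries, against 8.05, 7.73 and 7.99 in WT libraries. Each TKO value exceeded each WT value, with means of 12.5 ± 0.923 and 7.92 ± 0.169 (SD, n = 3 each). Its log2 fold change of 0.59 ± 0.08 (SE, limma adjusted p = 0.0019) stayed past the threshold when any single library was left out.

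Ago1 had 60.5, 58.2 and 65.1 signal in TKO libraries, against 69.0, 70.4 and 72.6 in WT libraries. The gap was small, a log2 fold change of -0.20 ± 0.06 (SE, limma adjusted p = 0.0397), and the call ended without TKO replicate 1 or 2 or any WT library (0.0800 to 0.123). For Ago1 the authors' deposited table gives -0.21 with an FDR of 0.376. Ago2, the cleaving Argonaute, had 152, 108 and 171 signal in TKO libraries, against 191, 201 and 192 in WT libraries. TKO libraries were all lower, yet their spread (SD 32.2, against 5.57 in WT) left the log2 fold change of -0.46 ± 0.16 (SE) just outside the threshold (limma adjusted p = 0.0549). With limma it passed without TKO replicate 2 (-0.27, adjusted p = 0.0267) or 3 (-0.60, 0.0235) and with median centring (-0.51, 0.0417). DESeq2 on recovered reads called it too (-0.44, adjusted p = 0.0185). It did not pass with edgeR (adjusted p = 0.0655). Nor did it with limma under library-size scaling (0.107), or without TKO replicate 1 (0.0694) or any WT library (0.113 to 0.148). For Ago2 the authors' deposited table gives -0.44 with an FDR of 0.0963.

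Ago3 had 44.5, 30.03 and 46.2 signal in TKO libraries, against 50.3, 46.9 and 46.2 in WT libraries. Here the groups touched, and TKO replicate 2 alone stood far below the rest. The difference came to -0.27 ± 0.16 on the log2 scale (SE, limma adjusted p = 0.219), and -0.07 without TKO replicate 2. Ago4, the Argonaute outside the member list, had 5.42, 5.43 and 6.16 signal in TKO libraries, against 6.69, 5.48 and 5.21 in WT libraries. The groups overlapped (log2 fold change -0.02 ± 0.11, SE, limma adjusted p = 0.884, and of the opposite sign under library-size scaling, at 0.08, and after removal of the length and GC trend, at 0.16).

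Tnrc6a, the scaffold that couples Argonautes to deadenylation, had 137, 119 and 162 signal in TKO libraries, against 179, 189 and 184 in WT libraries. All TKO libraries were lower, with a log2 fold change of -0.41 ± 0.11 (SE, limma adjusted p = 0.0237). The call ended without TKO replicate 1 (0.0525) or WT replicate 1 (0.0616), 2 (0.0836) or 3 (0.0655). Its paralog Tnrc6c had 69.2, 58.8 and 72.1 signal in TKO libraries, against 105, 104 and 106 in WT libraries. The groups were far apart, with means of 66.7 ± 6.96 and 104.9 ± 1.10 (SD, n = 3 each) and a log2 fold change of -0.65 ± 0.09 (SE, limma adjusted p = 0.0016). No alternative or left-out library ended that call.

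**Figure D2:**
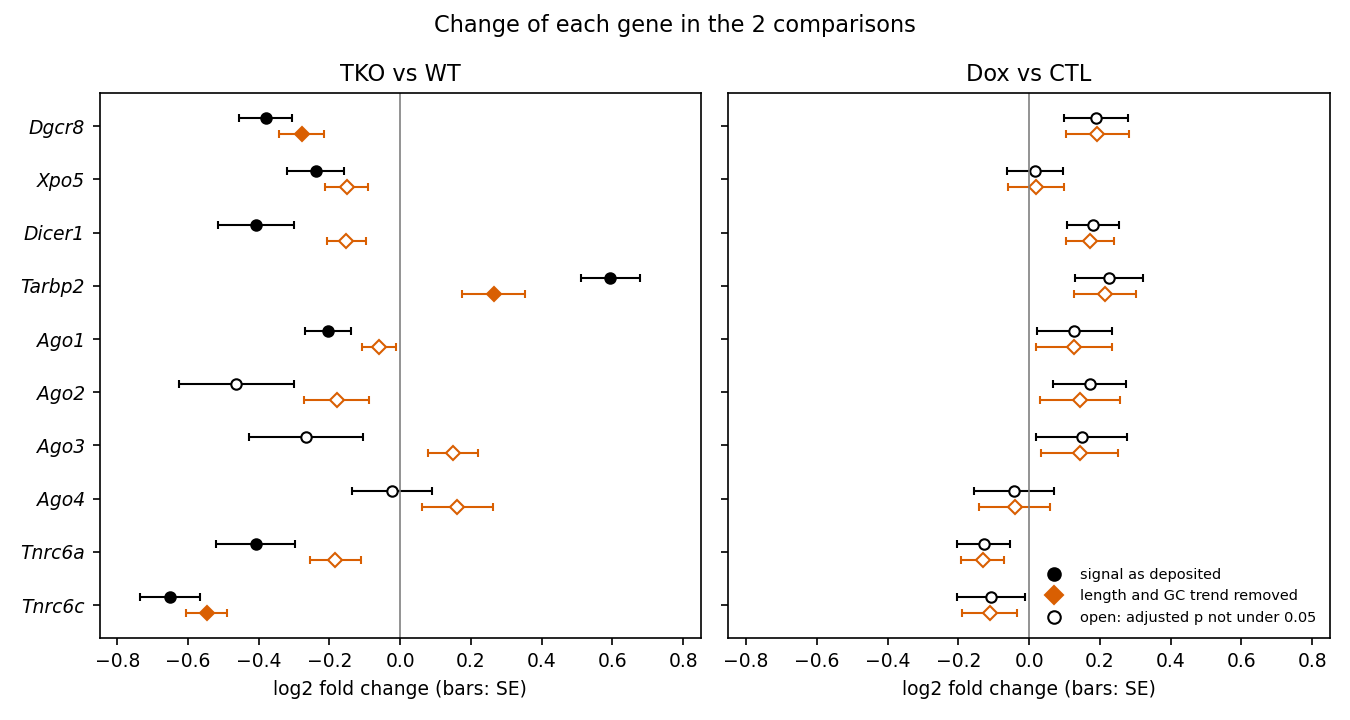
Log2 fold change of each member and of the paralogs Ago4 and Tnrc6c, TKO over WT and Dox over CTL, with the SE as error bars from limma on log2(signal + 1), on the signal as deposited (circles) and after removal of the length and GC trend (diamonds), open where the adjusted p was not under 0.05. On the deposited signal the values in TKO cells run from -0.65 (Tnrc6c) to 0.59 (Tarbp2), and in Dox cells from -0.13 (Tnrc6a) to 0.23 (Tarbp2).

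The fold changes followed transcript length across the whole table. Over 12635 genes the log2 fold change of TKO over WT correlated with transcript length (Spearman -0.32) and GC content (0.31), across genes that are not independent replicates, while for Dox over CTL these were -0.03 and 0.10. The median log2 fold change, TKO over WT, was 0.31 for the 1780 genes with transcripts up to 1500 bases and -0.27 for the 696 over 8000 bases. Tarbp2, with a transcript of 1523 bases and 57.5% GC, fell in the class of 1500 to 3000 bases, whose median was 0.09. The other members were longer than the median transcript of 3241.5 bases. Ago3 has 15595 bases, Ago2 13800, Dicer1 9851, Tnrc6a 8183, Ago1 7227, Xpo5 5081 and Dgcr8 4320.

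The fitted trend on length and GC content came to -0.42 on the log2 scale at Ago3, -0.28 at Ago2, -0.25 at Dicer1, -0.22 at Tnrc6a, -0.14 at Ago1, -0.10 at Dgcr8, -0.09 at Xpo5 and 0.33 at Tarbp2. With the trend removed, 2 of 8 members passed with limma, against 45.8% of all genes: Dgcr8 was lower (-0.28, adjusted p = 0.012) and Tarbp2 higher (0.26, adjusted p = 0.0488). Dicer1 came to -0.15 (0.0656), Tnrc6a to -0.18 (0.0773), Xpo5 to -0.15 (0.0878), Ago2 to -0.18 (0.155) and Ago1 to -0.06 (0.345). Ago3 changed sign, to 0.15 (0.130). Tnrc6c kept a log2 fold change of -0.55 (adjusted p = 7.8e-04). Whether the length trend comes from the cells or from the libraries was not tested, and it cannot be told apart from genotype in this design.

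**Figure D3:**
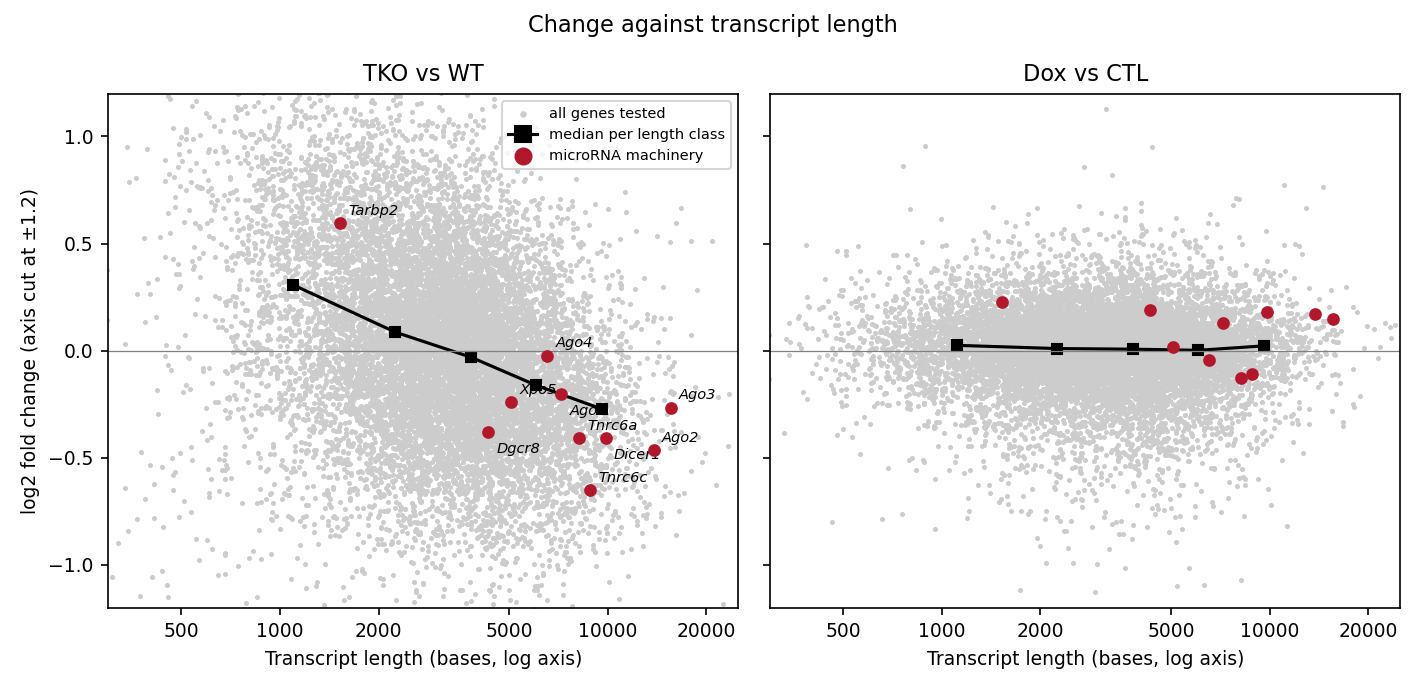
Log2 fold change of every tested gene against transcript length in bases on a log axis, TKO over WT on the left and Dox over CTL on the right, with the members, Ago4 and Tnrc6c in red and the median per length class as squares. In TKO cells short transcripts lie above 0 and long ones below, with Tarbp2 among the short and Ago2, Ago3 and Dicer1 among the long, and in Dox cells no such slope is seen (Spearman -0.03).

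Per kilobase of transcript, levels of different genes can be set side by side. In WT cells Xpo5 (22.5 ± 0.464 signal per kb) and Tnrc6a (22.5 ± 0.620) stood highest and did not differ beyond their spread (SD, n = 3), but with all annotated exons joined Xpo5 (16.7 ± 0.343) stood above Tnrc6a (14.5 ± 0.399). Ago2 followed at 14.1 ± 0.404, then Dgcr8 at 12.7, Ago1 at 9.78 and Dicer1 at 9.24, with Tarbp2 at 5.20 and Ago3 at 3.07 lowest of the members. In TKO cells Tarbp2 had 7.51, 8.61 and 8.49 signal per kb, beside 7.04, 5.96 and 7.96 for Dicer1, so it was above Dicer1 in each TKO library and below it in each WT library. That order depends on the length used: with all annotated exons joined, Tarbp2 was below Dicer1 in every group, and in WT cells also below Ago3 (1.74 for Tarbp2 and 2.89 for Ago3).

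Among the 4 Argonautes, Ago2 made up 46.2 ± 3.72% of the summed signal per kb in TKO cells and 50.7 ± 0.923% in WT cells, and Ago1 38.4 ± 4.21% in TKO and 35.1 ± 0.978% in WT cells (SD, n = 3 each). In TKO replicate 2 alone Ago1 (43.3%) exceeded Ago2 (41.9%), an order that turned with all annotated exons joined (41.1% for Ago1 and 44.0% for Ago2). Ago3 made up 11.48% in TKO and 11.02% in WT cells, and Ago4 3.93% in TKO and 3.19% in WT cells. The Argonaute sum was 23.0, 18.6 and 25.3 signal per kb in TKO libraries, against 27.6, 28.2 and 27.7 in WT libraries. Tnrc6a formed 69.2 ± 1.41% of Tnrc6a plus Tnrc6c in TKO cells and 65.4 ± 0.801% in WT cells. In Dox and CTL cells Ago2 formed 48.0% and 47.2% of the Argonautes, and Tnrc6a 64.3% and 64.6% of the pair. These shares are descriptions without a test.

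**Figure D4:**
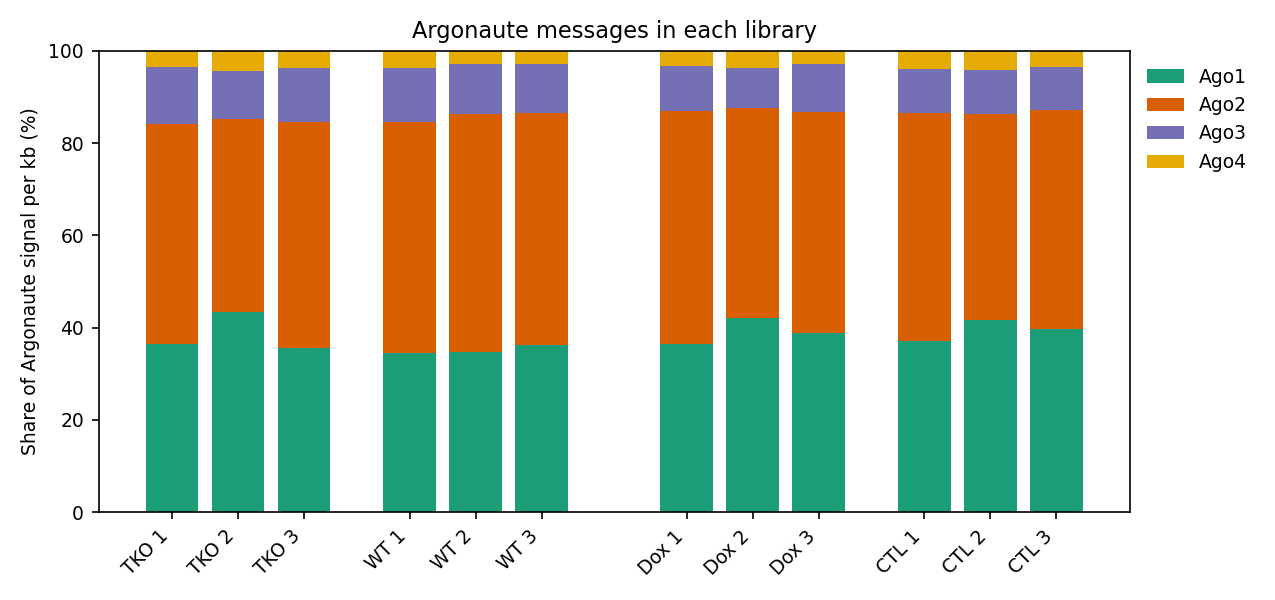
Share of each Argonaute gene in the summed Argonaute signal per kilobase, in percent, for each library of the 4 groups. Ago2 and Ago1 together form most of the sum in all 12 libraries, and TKO replicate 2 has the smallest Ago2 share (41.9%).

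The second question was whether added miR-26a moves the same genes. In Dox against CTL cells no member passed, and neither did any of the 12634 genes tested with limma (0%). At an unadjusted p under 0.05 there were 748 genes, among them 1 member, Dicer1. edgeR on recovered reads called 0 genes and DESeq2 called 99 (0.972%), none a member. Same-numbered libraries paired in this table. With the replicate as a block limma called 265 genes (2.1%), and with length and GC removed as well 931 (7.38%), again with no member. In the last of these fits 7 of the 8 members had an unadjusted p under 0.05, against 3273 of all 12620 genes. Their limma adjusted p there ran from 0.0706 (Dicer1) to 0.832 (Xpo5). The median log2 fold change was 0.16 over the 8 members, of which 7 were above 0, and 0.01 over all genes. The groups did not overlap for 3 members higher and 1 lower, where the background was 12.2% (6.5% higher and 5.66% lower).

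Dgcr8 had 47.3, 45.7 and 54.2 signal in Dox libraries, against 43.1, 42.0 and 43.3 in CTL libraries. All Dox libraries were above all CTL libraries, at a log2 fold change of 0.19 ± 0.09 (SE, limma adjusted p = 0.858, 0.277 with the block). Dicer1 had 78.6, 84.3 and 86.6 signal in Dox libraries, against 72.4, 74.0 and 73.1 in CTL libraries. The groups were again apart, at 0.18 ± 0.07 (SE, limma adjusted p = 0.825, 0.25 with the block). Tarbp2 had 17.9, 19.8 and 18.6 signal in Dox libraries, against 15.03, 15.8 and 16.9 in CTL libraries, at 0.23 ± 0.10 (SE, limma adjusted p = 0.838, 0.261 with the block).

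Tnrc6a was the only member whose Dox libraries were all below its CTL libraries. It had 122, 128 and 126 signal in Dox libraries, against 141, 141 and 129 in CTL libraries, a log2 fold change of -0.13 ± 0.07 (SE, limma adjusted p = 0.904, 0.408 with the block). Dox replicate 2 and CTL replicate 3 lay close together. Ago2 had 184, 168 and 205 signal in Dox libraries, against 171, 150.4 and 173 in CTL libraries. Ago3 had 40.1, 35.7 and 49.9 signal in Dox libraries, against 37.2, 36.8 and 38.1 in CTL libraries. Both overlapped, at 0.17 ± 0.10 for Ago2 and 0.15 ± 0.13 for Ago3 (SE). Tnrc6a, Tnrc6c and Ago3 hold the 8-base match: the log2 fold change was below 0 for Tnrc6a and Tnrc6c and above 0 for Ago3. Whether the match bears on the direction was not tested. Ago1 (0.13 ± 0.11) and Xpo5 (0.02 ± 0.08, SE) overlapped too, as did Ago4 (-0.04 ± 0.11). Tnrc6c had 67.4, 82.4 and 76.4 signal in Dox libraries, against 79.95, 84.4 and 78.9 in CTL libraries (-0.11 ± 0.09, SE, limma adjusted p = 0.966).

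Across the wider pathway, 66 other genes were listed by role, 61 had a row and 60 were tested. Mettl3, Lin28a, Lin28b, Ajuba and Pabpc1 were not analysed here, and Trim71 was under the filter. In TKO against WT cells 13 were higher, 20 lower and 27 did not pass (median log2 fold change -0.13), where 23.2% of all genes were higher and 22.7% lower. Under library-size scaling 15 were higher and 15 lower, where 3824 of all 12649 genes were higher and 1913 lower. After removal of the length and GC trend 17 were higher and 22 lower (median -0.05), against 2831 and 2960 of 12635 genes. In Dox against CTL cells 0 of 60 passed with limma (median 0.02), as did 0% of all genes. Of the 60, 3 had an unadjusted p under 0.05, against 748 of all 12634 genes.

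Among the helpers of the microprocessor 4 of 12 were higher and 1 lower in TKO cells, where 45.8% of all genes passed. Once the length and GC trend was taken out, 4 were higher and 5 lower, where the share over all genes was again 45.8%. Erh, a small partner of DGCR8, had 36.2, 40.4 and 38.5 signal in TKO libraries, against 19.3, 21.1 and 21.2 in WT libraries. Its log2 fold change of 0.87 (limma adjusted p = 4.0e-04) rests on a transcript of which 80.4% of the 75-base stretches recur elsewhere. Ncbp2, a subunit of the nuclear cap-binding complex, was higher (0.44, 0.0042), as was the splicing factor Srsf3 (0.38, 0.0051), while the other cap-binding subunit Ncbp1 was lower (-0.23, 0.0419). Of Srsf3 stretches 25.2% recur elsewhere. The Ncbp1 call ended when any library but TKO replicate 3 was left out (limma adjusted p from 0.081 to 0.147), under library-size scaling (0.303) and with edgeR (0.0508). Ran, the GTPase that exportin-5 needs to load its cargo, had 252, 251 and 272 signal in TKO libraries, against 139, 146 and 147 in WT libraries (0.84, limma adjusted p = 3.0e-04). It stood well clear of WT, opposite in sign to Xpo5. Ran has 12.9% of its stretches recurring elsewhere.

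At the Dicer step 3 of 7 were higher and 3 lower, where 45.8% of all genes passed in either direction. Tsnax and Tsn, the subunits of the nuclease that clears the passenger strand, were both higher (0.51 and 0.49, limma adjusted p = 0.0014 and 0.0013). Tut4, which adds uridines to precursor ends, had 45.9, 36.7 and 51.2 signal in TKO libraries, against 84.9, 79.2 and 75.8 in WT libraries (-0.84, limma adjusted p = 0.0024). Its relative Tut7 (-0.37, 0.0222) and Dis3l2, the nuclease for uridylated precursors (-0.31, 0.0224), were lower, and Prkra, a second partner of Dicer, was higher (0.39, 0.0213). These 3 calls were less firm: without WT replicate 1 or 2 the limma adjusted p was 0.0733 or 0.0773 for Prkra, 0.0809 or 0.0658 for Tut7 and 0.0822 or 0.07 for Dis3l2, and without WT replicate 3 it was 0.0523 for Dis3l2. With the length and GC trend removed Prkra (0.0619) and Tut7 (0.0655) did not pass, nor did Dis3l2 under library-size scaling (0.143). Of Tut7 stretches 23.8% recur elsewhere.

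Among Argonaute partners 3 of 13 were higher and 3 lower, a share close to the 45.8% of all genes that passed. Wtip, a LIM protein, had 20.9, 26.8 and 23.9 signal in TKO libraries, against 7.82, 9.05 and 10.9 in WT libraries (1.28, limma adjusted p = 8.5e-04). Limd1, another LIM protein that binds AGO2, was higher (0.50, 0.0033), as was Snd1, a nuclease found with the silencing complex (0.33, 0.0032). Hsp90aa1 and Hsp90ab1, the chaperones that load small RNA duplexes, were lower (both -0.41, limma adjusted p = 0.0072 and 0.0120), the second not without WT replicate 2 (0.0612) or without the filter on low values (0.0627). The helicase Mov10 was lower (-0.31, 0.0285), a call that ended without any library but TKO replicate 2 (0.0637 to 0.095) or under library-size scaling (0.193). Of Hsp90aa1 stretches 53.1% recur elsewhere.

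Of the TNRC6 scaffolds and silencing effectors 2 of 27 were higher and 13 lower in TKO cells, with a median log2 fold change of -0.29, against 23.2% higher and 22.7% lower over all genes. Once the length and GC trend was taken out, 5 were higher and 11 lower (median -0.16). Over all 12635 genes of that fit 2831 were higher and 2960 lower. Cnot3, a subunit of the CCR4-NOT deadenylase, had 36.5, 42.7 and 43.6 signal in TKO libraries, against 74.3, 86.9 and 76.3 in WT libraries (-0.94, limma adjusted p = 7.1e-04). Patl1, which bridges deadenylation and decapping, had 38.9, 43.2 and 47.3 signal in TKO libraries, against 77.2, 78.9 and 72.7 in WT libraries (-0.81, limma adjusted p = 7.5e-04). Both sets of libraries were far apart, and Pan3, a subunit of the PAN2-PAN3 deadenylase, was lower too (-0.58, 8.2e-04). Cnot8, a catalytic subunit of CCR4-NOT, was higher (0.42, 0.0031), as was the decapping enhancer Edc3 (0.28, 0.0183), which did not pass without WT replicate 2 (0.0806) or 3 (0.0604).

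**Figure D5:**
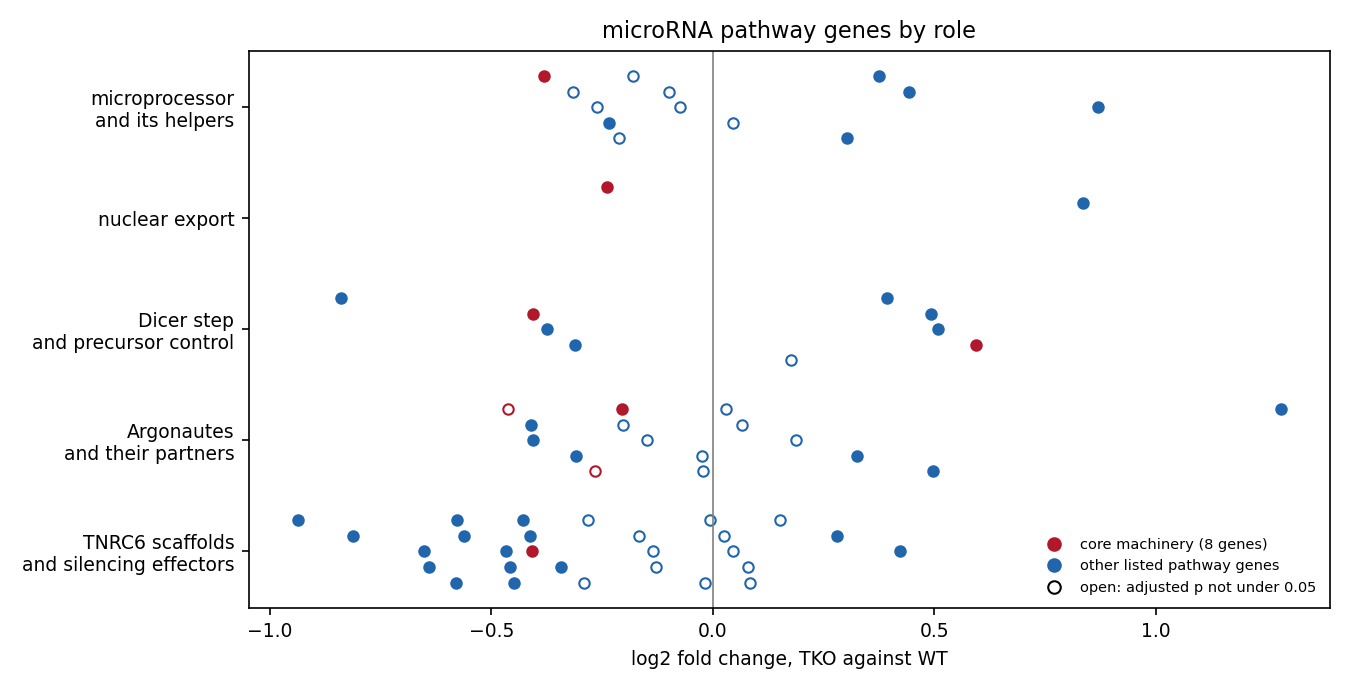
Log2 fold change, TKO over WT, of the 8 members (red) and the 60 other pathway genes tested (blue), in rows by role, with points filled where limma gave an adjusted p under 0.05 and vertical offsets only to part the points. The row of TNRC6 scaffolds and silencing effectors holds 13 lower and 2 higher blue points that are filled.

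Genes whose profiles over the 12 libraries were most like that of Dicer1, by root mean square difference of log2 values centred within each table, were Rbm33 (0.036), Myo5a (0.0437), Hmbox1 (0.050), Ankrd26 (0.0540) and Vprbp (0.0584), against a median of 0.258 over 12373 genes. For Ago2 they were Golga4 (0.0687), Ash1l (0.0697), Nktr (0.0741), Cdc42bpa (0.0763) and Baz2a (0.0777), against a median of 0.298. The log2 fold change of these 10 genes, TKO over WT, ran from -0.52 to -0.35, a range largely fixed by the choice over the same libraries. Their transcripts were 3396 (Hmbox1) to 11702 bases (Myo5a) long, against a median of 3241.5 over tested genes.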

How the data were processed

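Poly(A) RNA was sequenced on an Illumina NextSeq after TruSeq stranded preparation, per the labels' protocols. The submitters' processing notes name TopHat2 2.0.12, featureCounts 1.4.6, edgeR 3.8.6, StringTie 1.2.2 and GRCm38/mm10, with no role or order. The authors deposited, for each comparison, 1 table of signal per library, with their log2 fold changes, scores and p-values with FDR. Signal is the read count scaled for each library, by more than library size alone. The signal steps gave whole reads for 99.9% to 100% of values (tolerance 0.1 read). All per-library columns were used. edgeR 4.0.16 on those reads called 5769 genes for TKO over WT and 0 for Dox over CTL.

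Genes reaching 1 signal unit in 3 or more of 6 libraries were fitted per table with limma 3.58.1 (R 4.3.3) on log2(signal + 1), a scale that understates changes of low genes, with a mean trend, no pairing and Benjamini-Hochberg adjustment. The length and GC trend was removed with natural splines (4 degrees of freedom each). Alternatives were a pseudocount of 0.25, no filter, library-size scaling, median centring, edgeR, DESeq2 1.42.0, a replicate block and each library left out.

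Same-numbered libraries deviated together in Dox and CTL (correlations 0.86, 0.58 and 0.74) but not in TKO and WT (0.45, -0.13 and -0.29). The column of Dox replicate 2 and that of Dox replicate 3 share a sequencing suffix, and they were told apart by replicate number. Genes named beyond the members and the paralogs Ago4 and Tnrc6c were, per role and direction, up to 3 called genes with the smallest p, and the 5 nearest profiles of Dicer1 and Ago2. Members and gene lists were chosen with earlier results of these data known. Only the limma test without a block was checked on simulated counts, which held no length trend and no pairing. The alternatives were not checked in this way.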

Additional observations from a re-analysis of the deposited data

How the results depend on the processing

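Of the 8 members, 6 passed in TKO against WT cells, and 2 passed under library-size scaling, 2 with the length and GC trend removed, 1 with a replicate block and that trend removed, and 2 to 7 when each library was left out. A replicate block alone left 4 members (1 higher and 3 lower, against 40.3% of all genes), and with the trend removed 38.8% of genes passed. Same-numbered TKO and WT libraries share only a number. Library-size scaling moved the median gene up by 0.11 on the log2 scale and left Dgcr8 at -0.26 (limma adjusted p = 0.0287). The 33 pathway calls became 24 to 34 when each library was left out, and the 5796 genes called in all became 3938 to 5723. Ago3 turned to 0.15 with the trend removed, with or without the block. Ago4 turned to 0.085 under library-size scaling and 0.16 with the trend removed, with or without the block, and ranged from -0.084 to 0.070 over left-out libraries. The causes were not tested.

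In Dox against CTL cells 0 genes were called, against 99 with DESeq2, 265 with a replicate block, 931 with the block and the trend removed, and 134, 1534 and 591 with the block without pair 1, 2 and 3 (chosen after seeing the data). No member passed in any of these. Of the 60 pathway genes tested, 5 passed with the block and trend removed (Fkbp5, Ran, Dcp2 and Tob2 higher, Adar lower), against 7.38% of all genes. With the block over left-out pairs, 0 to 5 of them passed. Xpo5 turned to -7.8e-05 with DESeq2 and to -0.039 without CTL replicate 2 (highest 0.053 over left-out libraries), and to -0.033 with the block without pair 2. Dox and CTL libraries held 19301969 to 25785439 reads, against 54978109 to 83461531 in TKO and WT libraries, and the part of depth was not tested.

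With all annotated exons as the length, chosen after seeing the data, shares of the Argonaute or TNRC6 sum moved beyond their SD for Tnrc6a (67.8% in TKO, 63.9% in WT and 63.0% in CTL cells), Tnrc6c (32.2% in TKO, 36.1% in WT and 36.9% in CTL cells), and Ago1 (33.1%) and Ago2 (52.7%) in WT cells.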
